A study of Mus musculus with 4 samples.

Results

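The 10 genes described here are Arntl, Clock, Per1, Per2, Per3, Cry1, Cry2, Nr1d1, Nr1d2 and Dbp, the central genes of the mammalian circadian clock. They were taken by symbol from the 24342 genes used, and all 10 were among the 12312 genes tested, since each was above 1 FPKM in all 4 libraries. FPKM divides the fragments of a gene by its transcript length and by the sequencing yield, so levels of different genes can be compared per length. The libraries were made from aorta of C57BL/6 mice at 3 weeks of age, 2 labelled WT (wild type) and 2 labelled KO, with a knockout of GGPPS (geranylgeranyl diphosphate synthase, gene Ggps1). The labels name both sexes for every library and do not say how many animals a library holds, in which cells Ggps1 was deleted, or at which hour the aortas were collected. Ggps1 was listed with 8.96 and 10.6 FPKM in wild-type aorta and 1.18 and 1.07 FPKM in knockout aorta, in the direction of the labels.

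The clock is a loop of transcription factors that runs in nearly every cell, including the smooth muscle, endothelium and fibroblasts of the vessel wall. BMAL1, the product of Arntl, pairs with CLOCK on E-box sequences and switches on the Per, Cry, Nr1d and Dbp genes. PER and CRY proteins then block that pair, while the REV-ERB receptors made from Nr1d1 and Nr1d2 repress Arntl and the ROR receptors activate it. DBP acts on D-box sequences of further genes, Per genes among them. In mouse peripheral tissues Arntl transcripts peak around the start of the light phase, and Nr1d1, Dbp and the Per genes follow one another at times when Arntl is low, so the 2 arms run in opposite phase over a day.

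The main contrast was between these arms. Arntl was 3.97-fold higher in knockout by mean FPKM, and all 6 genes of the Per, Nr1d and Dbp arm were lower, between 2.03-fold for Nr1d2 and 3.91-fold for Dbp. As the hour of collection is unknown, a difference in level and a difference in the phase of the cycle cannot be told apart in any of these values. Of the 10 members, 8 were called lower at a limma adjusted p under 0.05, against 30.6% of all genes tested, and 1 was called higher, against 35.2%. Calls in either direction covered 9 of 10 members and 65.7% of all genes, so a call by itself says little here. A call as lower together with a mean FPKM at least 2-fold lower was found for 7 members and for 11.3% of genes tested. The median difference of the 10 members was -1.20 on the log2(FPKM + 1) scale, and that of all tested genes was 0.03. With column totals made equal, the split of all genes moved from 4331 higher and 3762 lower to 3095 higher and 5618 lower, and the median of all genes moved to -0.20. The direction of Arntl and of the 6 arm genes stayed as it was at that scaling. In bulk tissue such as this, fewer cells of a type and less RNA per cell cannot be told apart.

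The short elements through which these factors act can be read in promoter windows of some members, each spanning 250 bases before to 50 bases after an annotated start (RefSeq, GRCm38.p6). Windows were found for 9 of the 10 members, 13 windows in all. The stretches below are examples from members whose windows hold such elements. Capitals mark the E-box CACGTG, its variant CACGTT (which reads AACGTG on the other strand), the D-box TTANGTAA, and AGGTCA, the core of the site read by ROR and REV-ERB receptors (TGACCT on the other strand). Each is written 5′ to 3′ on the strand of its gene. The Per1, Cry1, Nr1d1 and Per3 stretches lie outside annotated exons, and the Arntl stretch lies in its 5′ untranslated exon.
Per1, chr11:69098754-69098853, plus strand: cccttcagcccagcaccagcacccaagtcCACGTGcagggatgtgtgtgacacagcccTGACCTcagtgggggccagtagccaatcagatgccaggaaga
Cry1, chr10:85185065-85185164, minus strand: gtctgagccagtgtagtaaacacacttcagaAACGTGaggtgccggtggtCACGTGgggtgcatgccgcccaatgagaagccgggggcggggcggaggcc
Nr1d1, chr11:98775378-98775477, minus strand: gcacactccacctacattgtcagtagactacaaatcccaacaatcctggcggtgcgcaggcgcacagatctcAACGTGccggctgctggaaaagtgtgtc
Per3, chr4:151044786-151044895, minus strand: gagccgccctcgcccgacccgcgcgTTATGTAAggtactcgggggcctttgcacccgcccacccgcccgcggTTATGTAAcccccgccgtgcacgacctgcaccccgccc
Arntl, chr7:113207530-113207559, plus strand: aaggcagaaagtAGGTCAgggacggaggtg

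Searched on both strands, CACGTG was present in 2 of the 13 member windows, of Per1 and Cry1, and in 7.15% of all 32851 promoter windows of the genome. CACGTT was present in 3 of the 13, of Cry1, Cry2 and Nr1d1, and in 4.68% of all windows. The D-box was found in the Per3 window, where it occurs at 205 and 158 bases before the start, and in 2.32% of all windows. AGGTCA was found in 4 of the 13, of Arntl, Clock, Per1 and Nr1d2, and in 16.3% of all windows. These motifs do not overlap one another in the members, and the window of Dbp held none of them. A match is a description of letters in a short window, and distant elements were not searched.

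Arntl (chromosome 7, 113207465 to 113314126, plus strand), which encodes BMAL1, was at 1.42 and 1.41 FPKM in wild-type aorta and at 5.42 and 5.82 FPKM in knockout aorta. Both knockout libraries lay far above both wild-type libraries, and the libraries of a genotype lay close together. The log2 difference was 1.45 (SE 0.12, 95% interval 1.19 to 1.72, limma adjusted p = 2.1e-07), higher than that of 94.7% of tested genes. In wild type its level exceeded that of only 8.63% of tested genes, and in knockout that of 33.2%. As a gene of low level, its log2 difference depended on the pseudocount, with 0.73 at a pseudocount of 5 and 1.92 at 0.1.

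Clock (chromosome 5, 76209868 to 76304792, minus strand), the partner of BMAL1, did not follow Arntl. It was at 5.85 and 5.81 FPKM in wild-type aorta and at 4.49 and 5.29 FPKM in knockout aorta. The knockout libraries were the lower ones, by less than the change of the arm genes (log2 difference -0.22, 95% interval -0.49 to 0.06, limma adjusted p = 0.147). It was called lower with equal column totals (-0.44, limma adjusted p = 0.00451), with median centring (-0.25, 0.0499) and without knockout library 2 (-0.31, 0.0414), and its difference was 0.07 with length and GC trends removed (0.461).

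**Figure D1:**
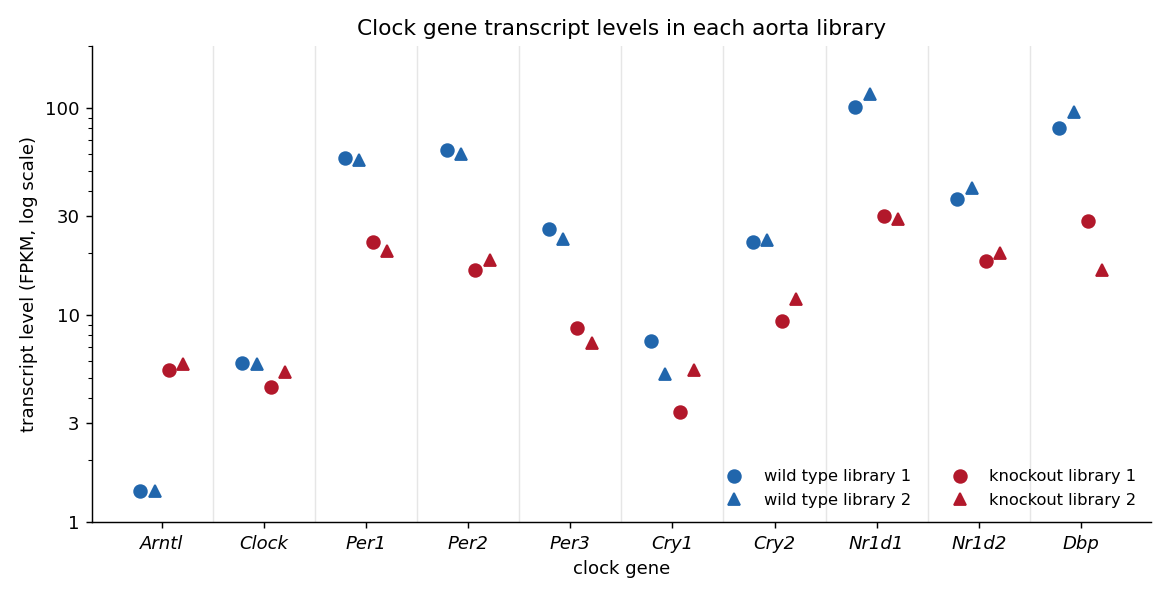
Transcript level of each clock gene (FPKM, log axis) in the 2 wild-type (blue) and 2 knockout (red) aorta libraries, 1 point per library. Arntl is the only gene with both knockout points above both wild-type points, Cry1 is the only one whose genotypes overlap, and for the other 8 genes both knockout points are lower.

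The period genes encode the PER proteins, the inhibitory limb of the loop. Per1 (chromosome 11, 69095217 to 69109960, plus strand) was at 57.4 and 56.4 FPKM in wild-type aorta and at 22.6 and 20.5 FPKM in knockout aorta. Per2 (chromosome 1, 91415982 to 91459324, minus strand) was at 62.9 and 60.0 FPKM in wild-type aorta and at 16.5 and 18.5 FPKM in knockout aorta. Per3 (chromosome 4, 151003652 to 151044665, minus strand) was at 26.1 and 23.3 FPKM in wild-type aorta and at 8.72 and 7.34 FPKM in knockout aorta. For all 3 genes the genotypes did not overlap, and the spread within a genotype was small beside the gap. Both knockout libraries were below both wild-type libraries for 8 of the 10 members and for 39.6% of all tested genes, and above both for 1 member and 43.6%. The log2 difference was -1.76 for Per2 (SE 0.11, limma adjusted p = 1.03e-08), -1.51 for Per3 (SE 0.12, 1.54e-07) and -1.36 for Per1 (SE 0.11, 9.72e-08). Within a library, Per1 stood at 0.914 and 0.940 times Per2 in wild type and at 1.37 and 1.11 times Per2 in knockout, so the order of this pair was turned in both knockout libraries.

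The cryptochromes complete the PER complex. Cry2 (chromosome 2, 92403646 to 92434043, minus strand) was at 22.6 and 23.1 FPKM in wild-type aorta and at 9.35 and 12.0 FPKM in knockout aorta, with a log2 difference of -1.04 (SE 0.13, limma adjusted p = 8.01e-06). Cry1 (chromosome 10, 85131700 to 85185064, minus strand) was at 7.55 and 5.22 FPKM in wild-type aorta and at 3.39 and 5.47 FPKM in knockout aorta, so its genotypes overlapped. Its log2 difference of -0.45 only just passed the threshold (SE 0.18, limma adjusted p = 0.0445). The call was lost in 5 of 13 alternatives, which include leaving out wild-type library 1 (-0.22, limma adjusted p = 0.353) or knockout library 1 (-0.17, 0.439). Cry1 is the member of this family whose peak is known to come late, after that of the Per genes. Whether Cry1 and Cry2 differed in their response was not tested.

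The Nr1d genes encode REV-ERB alpha and beta, the heme-binding repressors of Arntl. Nr1d1 (chromosome 11, 98767932 to 98775333, minus strand) was the most abundant member, at 101.8 and 116.7 FPKM in wild-type aorta and at 30.1 and 29.1 FPKM in knockout aorta. Nr1d2 (chromosome 14, 18204054 to 18239127, minus strand) was at 36.4 and 41.3 FPKM in wild-type aorta and at 18.3 and 19.99 FPKM in knockout aorta. Neither gene overlapped between genotypes, and both knockout libraries were also the lower ones for 39.6% of all tested genes. The log2 difference was -1.85 for Nr1d1 (SE 0.11, limma adjusted p = 5.26e-09) and -0.98 for Nr1d2 (SE 0.11, 4.22e-06). Their 95% intervals, -2.08 to -1.62 and -1.23 to -0.74, did not overlap. Nr1d1 stood at 2.80 and 2.83 times Nr1d2 in wild type and at 1.65 and 1.45 times Nr1d2 in knockout.

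Nr1d1 shares 263 exon bases, 8.55% of its own, with Thra on the opposite strand. Thra, the thyroid hormone receptor alpha gene, was at 115.9 and 109.4 FPKM in wild-type aorta and at 41.6 and 48.0 FPKM in knockout aorta, so it moved the same way. The sources used here do not say whether fragments were counted by strand, and the part of Thra reads in the Nr1d1 values was not tested. Dbp shares 539 exon bases, 18.0% of its own, with Sphk2, a sphingosine kinase gene at 38.8 and 37.4 FPKM in wild-type aorta and 25.6 and 20.9 FPKM in knockout aorta. Both neighbours were named after their values were seen.

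Dbp (chromosome 7, 45705088 to 45710203, plus strand), the D-box activator and a direct target of CLOCK and BMAL1, was at 80.4 and 95.9 FPKM in wild type. In knockout it was at 28.5 and 16.6 FPKM, and the 2 knockout libraries stood further apart for Dbp than for any other member in FPKM. Its log2 difference of -1.96 was the lowest of the 10 (SE 0.18, limma adjusted p = 5.42e-07). It was -1.59 without knockout library 2 and -2.33 without knockout library 1. A lower log2 difference than that of Dbp was found for 1.06% of tested genes, than that of Nr1d1 for 1.37% and than that of Per2 for 1.62%.

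The order of levels shifted with the genotype. In wild type the mean levels ran from Nr1d1 at 109.3 FPKM through Dbp at 88.2, Per2 at 61.4, Per1 at 56.9, Nr1d2 at 38.8, Per3 at 24.7 and Cry2 at 22.8 to Cry1 at 6.38, Clock at 5.83 and Arntl at 1.41. Only the neighbours Cry1 and Clock overlapped between libraries in that order. In knockout the order was Nr1d1 at 29.6 FPKM, Dbp at 22.5, Per1 at 21.5, Nr1d2 at 19.1, Per2 at 17.5, Cry2 at 10.7, Per3 at 8.03, Arntl at 5.62, Clock at 4.89 and Cry1 at 4.43. There the range of Dbp covered that of Per1 and Nr1d2 and reached into that of Per2, Nr1d2 overlapped Per2, and Cry1 overlapped Clock and Arntl. The summed level of the 10 genes was 402 and 429 FPKM in wild-type aorta and 147 and 141 FPKM in knockout aorta.

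A ratio of 2 genes within a library does not depend on how the libraries were scaled. Nr1d1 stood at 71.7 and 82.8 times Arntl in wild type and at 5.55 and 5.00 times Arntl in knockout. Dbp stood at 56.6 and 68.1 times Arntl in wild type and at 5.25 and 2.86 times in knockout. Each of the 6 arm genes had a ratio to Arntl that was higher in both wild-type libraries than in both knockout libraries. The mean ratio was between 8.07-fold (Nr1d2) and 15.4-fold (Dbp) higher in wild type, with 14.0-fold for Per2, 14.7-fold for Nr1d1, 12.2-fold for Per3 and 10.5-fold for Per1. The summed level of the arm was 257 and 279 times Arntl in wild type and 23.0 and 19.3 times Arntl in knockout. Clock stood at 4.12 times Arntl in each wild-type library and at 0.828 and 0.910 times in knockout, so the more abundant of the 2 activator transcripts was Clock in wild type and Arntl in knockout. These ratios share Arntl as the denominator and are therefore not independent of each other. The rise of Arntl in knockout lowers every such ratio there, also for genes that were not called. The mean ratio to Arntl was 4.74-fold higher in wild type for Clock and 4.25-fold for Npas2, both uncalled and both without overlap of the genotypes. An exact two-sided permutation test of 2 against 2 libraries cannot give a p under 0.333, so none was made.

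**Figure D2:**
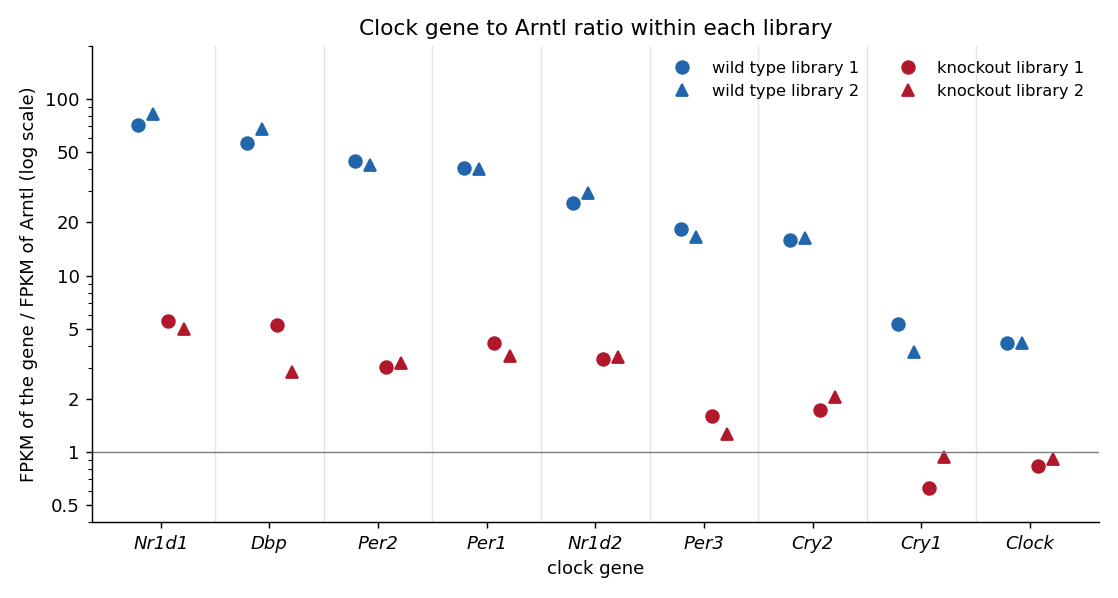
FPKM of each clock gene divided by FPKM of Arntl in the same library (log axis), 2 wild-type (blue) and 2 knockout (red) libraries, 1 point per library, with a line at a ratio of 1. All wild-type points lie above all knockout points of the same gene, and Cry1 and Clock fall below 1 in knockout only. The rise of Arntl in knockout lowers every ratio there.

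Other genes of the clock were taken from 3 lists of paralogs, further factors and partners, 31 genes of which 28 were tested. Of these, 15 were lower and 6 higher, with a median log2 difference of -0.32, beside 30.6% and 35.2% of all genes and a median of 0.03. Timeless, among the 6, passed the filter through the knockout libraries only. Among paralogs of the activators, Npas2, which can stand in for CLOCK, was at 2.09 and 1.87 FPKM in wild-type aorta and 1.85 in both knockout libraries and was not called (log2 difference -0.06, 95% interval -0.33 to 0.20, limma adjusted p = 0.66). Arntl2, the paralog of Arntl, was called higher, at 2.24 and 3.09 FPKM in wild-type aorta and 3.80 and 4.05 FPKM in knockout aorta (log2 difference 0.44, limma adjusted p = 0.013). Its call was lost in 5 of 12 alternatives, which include the fit without wild-type library 1 (0.27, limma adjusted p = 0.243), that without knockout library 2 (0.40, 0.068) and that at equal column totals (0.24, 0.128). Rora, the ROR receptor that activates Arntl, was lower, at 5.60 and 5.58 FPKM in wild-type aorta and 2.82 and 3.69 FPKM in knockout aorta (limma adjusted p = 0.000829). Rorb, another ROR receptor gene, was listed at 0 in all 4 libraries.

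The relatives of Dbp moved with it. Tef, which binds the same D-box, was at 104.3 and 98.4 FPKM in wild-type aorta and at 34.7 and 31.7 FPKM in knockout aorta (log2 difference -1.58, SE 0.10, limma adjusted p = 1.67e-08). Hlf, the remaining PAR bZIP factor, was at 8.496 and 9.30 FPKM in wild-type aorta and at 1.99 and 1.70 FPKM in knockout aorta, a mean 4.82-fold lower (log2 difference -1.80, limma adjusted p = 3.57e-08, and -1.02 with a pseudocount of 5). Both genes were lower in both knockout libraries than in both wild-type libraries, as were 39.6% of all tested genes. Nfil3, which represses D-box genes and runs in phase with Arntl, was at 10.5 and 14.1 FPKM in wild-type aorta and at 15.1 and 20.3 FPKM in knockout aorta. It was called higher (log2 difference 0.49, limma adjusted p = 0.0135). The call ended in 5 of 13 alternatives, with 0.24 at equal column totals (limma adjusted p = 0.161), 0.29 without wild-type library 1 (0.198) and 0.29 without knockout library 2 (0.15). Dbp stood at 7.67 and 6.80 times Nfil3 in wild type and at 1.89 and 0.819 times Nfil3 in knockout.

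Among the further E-box repressors, Bhlhe40 went against the Per genes. Bhlhe40, also called DEC1, was at 7.68 and 8.92 FPKM in wild-type aorta and at 26.3 and 31.9 FPKM in knockout aorta (log2 difference 1.69, SE 0.13, limma adjusted p = 7.57e-08). Its paralog Bhlhe41 was at 9.44 and 9.90 FPKM in wild-type aorta and 6.91 and 8.49 FPKM in knockout aorta and was not called (log2 difference -0.30, limma adjusted p = 0.0527). Bhlhe41 was called lower in 6 of 13 alternatives, one of them without knockout library 2 (-0.43, limma adjusted p = 0.0086). Ciart, a repressor of CLOCK and BMAL1, was lower, at 6.50 and 7.11 FPKM in wild-type aorta and 4.62 and 5.25 FPKM in knockout aorta (limma adjusted p = 0.0128), a call lost without wild-type library 2 (0.142).

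**Figure D3:**
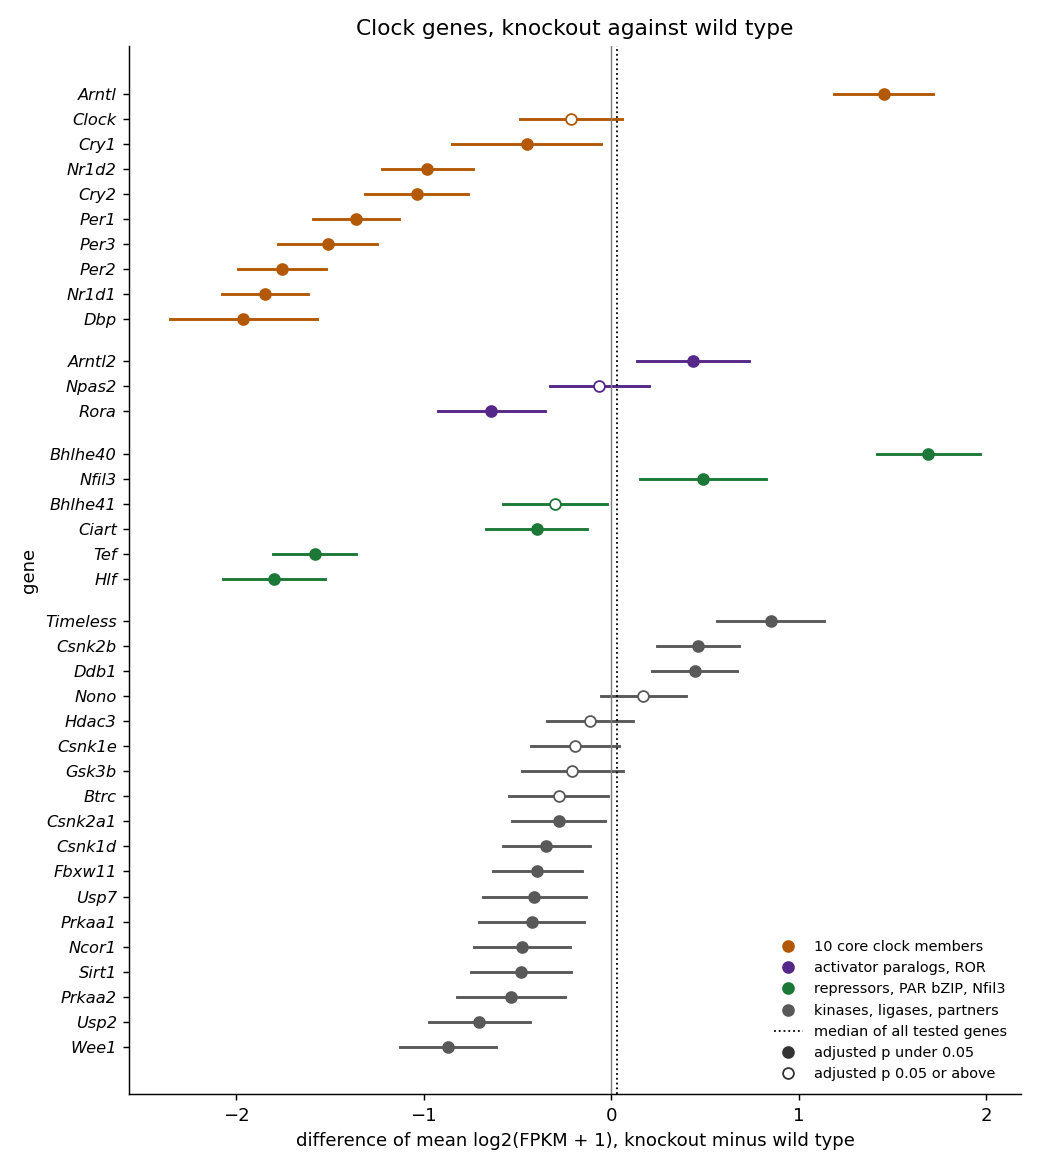
Difference of mean log2(FPKM + 1), knockout minus wild type, for the 10 clock members and 27 other tested clock genes, with 95% limma intervals. Filled points are genes with an adjusted p under 0.05, the dotted line marks the median of all tested genes at 0.03, and Arntl and Bhlhe40 stand to the right of the other genes while Dbp, Nr1d1, Hlf, Per2 and Tef stand to the left.

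The listed kinases, other enzymes and protein partners linked to the clock changed less. Of 19 tested, 11 were lower, 3 were higher and 5 were not called, with a median log2 difference of -0.35. The shares of all tested genes were 30.6% lower and 35.2% higher, and calls in either direction, 14 of 19, were near the 65.7% of all genes. On the log2(FPKM + 1) scale the largest fall was that of Wee1, followed by Usp2. By mean FPKM the order was turned, with Usp2 2.04-fold and Wee1 1.92-fold lower. Wee1, a cell cycle kinase driven by E-boxes, was at 16.6 and 19.0 FPKM in wild-type aorta and at 9.33 and 9.19 FPKM in knockout aorta (log2 difference -0.87, limma adjusted p = 2.11e-05). Usp2, a deubiquitinase, was at 3.11 and 3.08 FPKM in wild-type aorta and at 1.67 and 1.37 FPKM in knockout aorta (log2 difference -0.70, limma adjusted p = 0.000225, and -0.31 with a pseudocount of 5). The casein kinase gene Csnk1d, whose product phosphorylates PER, was at 51.5 and 47.5 FPKM in wild-type aorta and 36.5 and 41.1 FPKM in knockout aorta (log2 difference -0.35, limma adjusted p = 0.012, and 0.17 without wild-type library 1). Csnk1e was at 35.6 and 35.2 FPKM in wild-type aorta and 28.8 and 32.9 FPKM in knockout aorta and was not called (limma adjusted p = 0.134), though it was without knockout library 2 (0.025). The 3 called higher were Timeless at a log2 difference of 0.85, Csnk2b at 0.46 and Ddb1 at 0.44. The last 2 calls ended with equal column totals, and Csnk2b was at -0.02 with length and GC trends removed. Timeless, at 0.674 and 0.902 FPKM in wild-type aorta, passed the filter through the knockout libraries only and is better known for its part in DNA replication than in the mammalian clock.

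Markers of smooth muscle, the main cell of the aorta, were present in all 4 libraries, and the cell types of the vessel wall stood at different levels in these libraries. All 8 contractile smooth muscle markers were lower, with a summed level of 15618 and 17509 FPKM in wild-type aorta and 4010 and 5285 FPKM in knockout aorta. Endothelial markers were lower in 6 of 6 tested, with sums of 222 and 229 FPKM against 59.4 and 75.0 FPKM, and fibroblast markers in 5 of 6, with sums of 547 and 589 FPKM against 358 and 381 FPKM. Macrophage markers were higher in 7 of 7, with sums of 57.5 and 59.2 FPKM in wild-type aorta and 428 and 357 FPKM in knockout aorta. Adgre1, one of these 7, was at 0.701 and 0.859 FPKM in wild-type aorta and passed the filter through the knockout libraries only. Of all tested genes, 30.6% were called lower and 35.2% higher. Of the fat cell markers, Adipoq, Plin1, Lep and Ucp1 were under 1 FPKM in every library. The list summed to 154 and 199 FPKM against 78.1 and 95.7 FPKM, most of it Fabp4. Cidea, also of this list, was at 7.82 and 13.2 FPKM in wild-type aorta and at 0.711 and 0.585 FPKM in knockout aorta. It passed the filter through the wild-type libraries only. Of the 3 tested fat cell markers, 2 were lower and 1 was not called. None of these lists had a marker at 0 in all 4 libraries. The part of these shifts in the clock gene differences was not tested.

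Alternative ways of testing left the main contrast in place. Arntl, Per1, Per2, Per3, Cry2, Nr1d1, Nr1d2 and Dbp kept their direction and an adjusted p under 0.05 in all 13 alternatives, the exceptions among the 10 being Clock and Cry1. The log2 difference ranged from -2.11 to -1.72 for Nr1d1, from -2.33 to -1.59 for Dbp, from -2.01 to -1.49 for Per2 and from 0.73 to 1.92 for Arntl. The number of members called lower was 7 to 9 and the number called higher was 1. Over all genes, the alternatives called 2726 to 5618 lower and 3095 to 4608 higher, so the background moved as well.

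**Figure D4:**
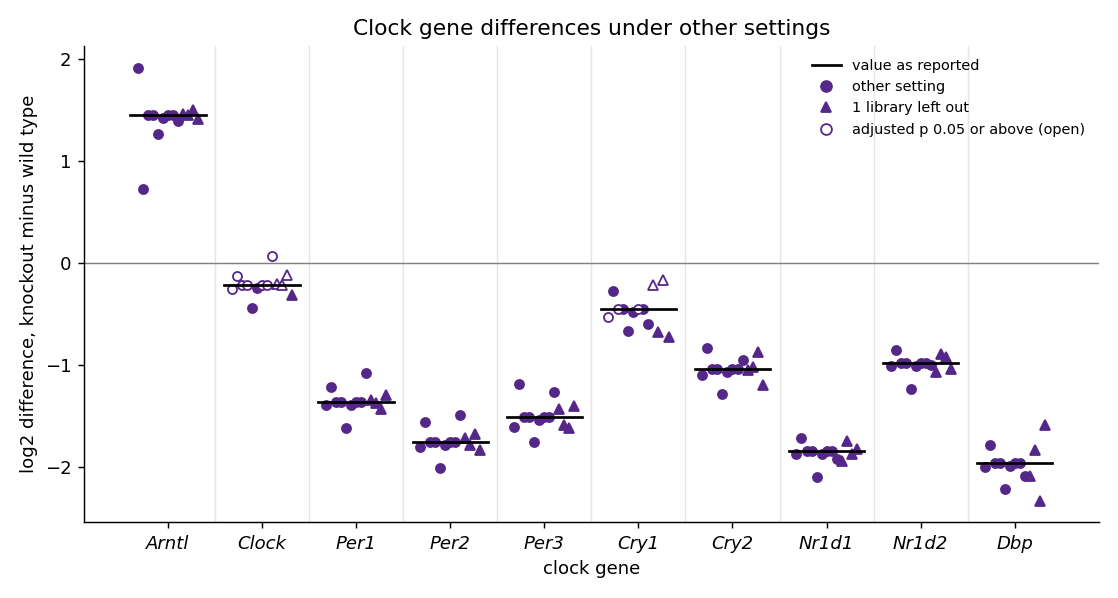
Log2 difference of each clock gene (knockout minus wild type) as reported (black bar) and under 13 alternatives, 9 with another setting (circles) and 4 with 1 library left out (triangles). Open symbols have an adjusted p of 0.05 or above and occur for Clock and Cry1 only.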

How the data were processed

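The deposited values are FPKM, 1 file per library, made by the authors and named as such, in a misspelt form, per the file headers. The submitters' processing notes list the build mm10 and the tools DESeq2 1.16.1, featureCounts 1.5.0-p3 and HISAT2 2.0.5 without their roles. Which program made the FPKM is not given here. Low values showed no common step that would give back whole fragments, so library depth is unknown. Precision was taken from the spread between 2 libraries a genotype, which limma pools over genes.

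Of 24346 rows, 4 with repeated date-like symbols were left out. The test took genes reaching 1 FPKM in 2 or more libraries, on log2(FPKM + 1), with limma 3.58.1 (R 4.3.3) and an intensity trend, with Benjamini-Hochberg adjustment over 12312 genes and a threshold of 0.05. Log2 differences are on that scale, knockout minus wild type, and understate changes of low genes. Folds are ratios of mean FPKM. Each gene's own libraries gave 2 of the 13.4 degrees of freedom. The procedure was tested on simulated data. Nothing in the labels says that the libraries of a genotype came from separate animals, so p-values measure only the spread between these libraries, which may be technical. Groups come from the genotype label, and library numbers pair nothing.

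Coordinates are from GENCODE M21 (GRCm38, the assembly named mm10). Length and GC, from each symbol's longest transcript, were available for 96.3% of tested genes. The members and lists were chosen with earlier results of these data known. Genes named were the 10 members, Ggps1, genes of 5 further lists, and defining cell type markers. Some genes of these lists are not reported here.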

Additional observations from a re-analysis of the deposited data

How the results depend on the processing

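Across 55 genes and up to 13 alternatives each, 640 of 706 values kept their direction and their side of the threshold, 39 lost a call, 22 gained one and 5 changed sign. The 5 were, with length and GC trends removed, Clock at 0.0705, Csnk2b at -0.0226, Gsk3b at 0.0845 and Nono at -0.0664, and with equal column totals Nono at -0.0898. None of these 5 passed the threshold there, and the cause was not tested. A pseudocount of 5 shrinks low genes by construction. All genes called ranged from 3095 to 4608 higher and from 2726 to 5618 lower. With 2 libraries a genotype and unknown depth, no detection limit can be given. Leaving out a library leaves 1 in its genotype, which is assumed to vary like the rest. No paired analysis was possible because the labels carry no replicate number shared between genotypes.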

Other observations

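Per1 is also known to answer to glucocorticoids and to acute stimuli, so genes of both kinds were read beside the clock. All 8 glucocorticoid-responsive genes were called lower (median log2 difference -0.89), beside 30.6% of all genes tested. Zbtb16, a zinc finger factor, was at 37.4 and 24.7 FPKM in wild-type aorta and at 6.13 and 7.80 FPKM in knockout aorta, and fell by 1.99 on the log2 scale (limma adjusted p = 2.21e-07). Klf9, a factor that hormone and clock both drive, was at 83.8 and 89.9 FPKM in wild-type aorta and at 32.8 and 40.9 FPKM in knockout aorta (log2 difference -1.22, limma adjusted p = 7.55e-07). Nr3c1, the glucocorticoid receptor gene, was at 20.5 and 23.3 FPKM in wild-type aorta and at 9.78 and 12.6 FPKM in knockout aorta (limma adjusted p = 3.59e-05). Tsc22d3, known as GILZ, was the least changed at -0.34, and its call was lost when wild-type library 1 (limma adjusted p = 0.0841) or 2 (0.164) was left out. Contractile smooth muscle markers, lower in 8 of 8, and macrophage markers, higher in 7 of 7, moved in the same libraries, and their part was not tested. Adgre1, among these 7, passed the filter through the knockout libraries only. Of all genes tested, 30.6% were lower and 35.2% higher.

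Of 8 immediate early genes, 5 were higher and 3 lower, beside 35.2% and 30.6% of all genes tested, with a median log2 difference of 0.56. Junb was at 29.3 and 24.5 FPKM in wild-type aorta and at 101.6 and 118.1 FPKM in knockout aorta, and Atf3 at 9.92 and 12.6 FPKM in wild-type aorta and 44.9 and 51.6 FPKM in knockout aorta. Fos was at 12.8 and 11.5 FPKM in wild-type aorta and at 4.55 and 8.05 FPKM in knockout aorta (log2 difference -0.88, limma adjusted p = 0.000717), and Fosb and Nr4a1 were lower too, at -0.79 and -0.85. The call of Crem, higher by 0.46, was lost when wild-type library 2 was left out (limma adjusted p = 0.0943) and with equal column totals (0.119).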
